A study of Homo sapiens with 6 samples.

Results

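The genes described here are the 5 subunits of the transcription factor NF-kB (NFKB1, NFKB2, RELA, RELB and REL) and 5 of its inhibitors and regulators (NFKBIA, NFKBIE, NFKBIZ, TNFAIP3 and BCL3), 10 of the 58174 genes measured. They were chosen by name, and the FPKM values (fragments per kilobase of transcript scaled to the mapped fragments of a library) of all their transcripts were summed per gene. mRNA was sequenced from SiHa cells, an established line of human cervical squamous cell carcinoma, 48 h after transfection. The OV-BRCA1 group (n = 3) received the GV230-BRCA1 plasmid, and the NC group (n = 3) received the empty GV230 plasmid. All 6 samples therefore carried transfected GV230 and came from the same line in the same medium. The transfection was transient, the promoter that drives BRCA1 is not given in the sources used here, and cells without plasmid were not separated from cells with it. BRCA1 itself was expressed at 37.1 ± 3.18 FPKM (mean ± SD, as throughout) with the BRCA1 plasmid and at 18.9 ± 3.56 without it, which corresponds to 0.95 on the log2 scale (SE 0.14, limma adjusted p = 0.00373).

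NF-kB is a family of dimers. In the canonical route, the IkB kinase complex marks the cytoplasmic inhibitor IkBα (NFKBIA) for degradation, and dimers of p50 (from NFKB1) and RelA enter the nucleus. In the noncanonical route, the kinase NIK (MAP3K14) leads to processing of the NFKB2 product p100 to p52, which acts with RelB. Several of the genes that NF-kB switches on encode its own subunits and inhibitors, so the system contains feedback at the level of transcription.

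The sequences in which NF-kB can bind are the kB motifs, and those near the start sites of the 10 genes are given first because the members are known as one another's targets. Start windows from 250 bases before to 50 bases after each start were taken from RefSeq (GRCh38.p14) and matched 8 of the 10 genes in 13 windows. RELB and NFKBIE were not among those matched. The kB motif, searched on both strands, occurred in 9 of the 13 windows and in 7 of the 8 genes, whereas 3956 of all 35116 windows (11.3%) held it. RELA was the gene without a match in its 2 windows. The interferon motifs (ISRE and GAS) TTTCNNTTTC (3.57% of all windows) and TTCNNNGAA (7.66%) each occurred in 1 of the 13 windows, in both cases a RELA window, so neither overlapped a kB match. In the stretches of 30 bases that follow, written 5′ to 3′ on the strand of the gene, capitals mark the kB matches. By GENCODE 29 the first NFKBIZ stretch lies upstream of the gene, and the NFKB2 stretch that starts at 102395519 lies in an intron. The other stretches overlap exons outside the coding sequence, though not always at the match itself. The NFKB1 match ends at 102501319, before the annotated gene start at 102501329.
NFKB1, chr4:102501300-102501329, plus strand: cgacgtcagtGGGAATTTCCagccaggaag
NFKB2, chr10:102394462-102394491, plus strand: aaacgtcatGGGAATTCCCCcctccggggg
NFKB2, chr10:102394490-102394519, plus strand: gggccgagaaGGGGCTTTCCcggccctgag
NFKB2, chr10:102395519-102395548, plus strand: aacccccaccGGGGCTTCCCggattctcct
NFKB2, chr10:102395674-102395703, plus strand: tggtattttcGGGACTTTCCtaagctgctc
REL, chr2:60881518-60881547, plus strand: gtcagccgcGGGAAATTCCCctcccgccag
NFKBIZ, chr3:101827757-101827786, plus strand: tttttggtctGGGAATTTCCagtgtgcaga
NFKBIZ, chr3:101849265-101849294, plus strand: gcgcgctgtcGGGGTTTCCCggtgaagggc
TNFAIP3, chr6:137867188-137867217, plus strand: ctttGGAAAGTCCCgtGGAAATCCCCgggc
BCL3, chr19:44748700-44748729, plus strand: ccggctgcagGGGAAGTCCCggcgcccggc
For NFKBIA, the textbook example of a feedback inhibitor, the whole 250 bases before the start are given, which lie upstream of the annotated gene and hold 1 match.
NFKBIA, chr14:35404750-35404999, minus strand: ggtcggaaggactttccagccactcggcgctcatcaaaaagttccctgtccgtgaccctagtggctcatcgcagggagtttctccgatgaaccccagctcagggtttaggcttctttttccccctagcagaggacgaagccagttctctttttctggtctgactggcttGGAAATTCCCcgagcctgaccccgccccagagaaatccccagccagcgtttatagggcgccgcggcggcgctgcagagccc
A match describes these letters only, and binding was not measured.

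**Figure D1:**
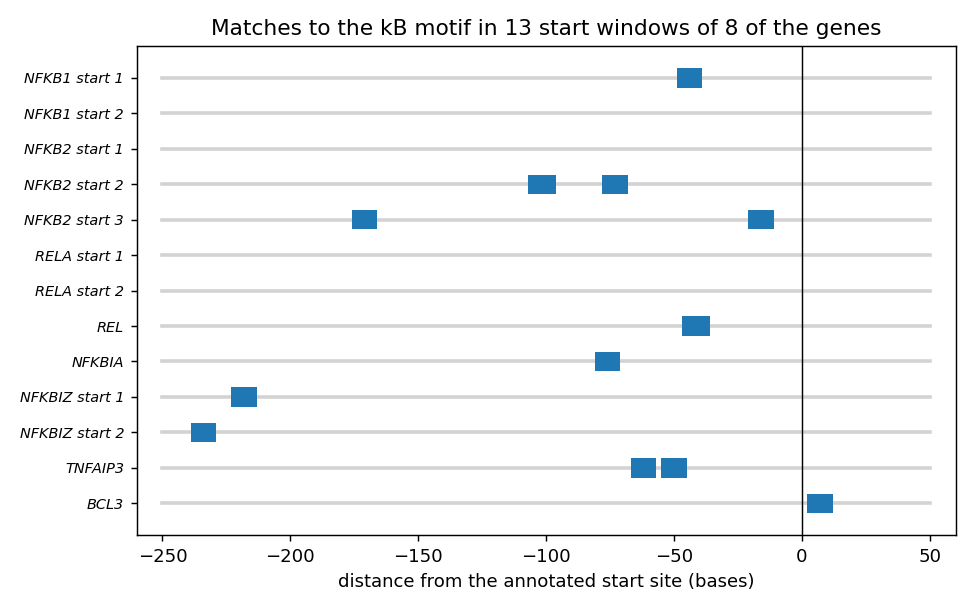
Position of kB motif matches (blue boxes) in 13 start windows (grey lines) of 8 genes, with the distance from the annotated start site in bases on the horizontal axis. NFKB2 starts 2 and 3 and TNFAIP3 each hold separate matches, and both RELA windows are empty.

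The 10 genes all passed the filter on low values (0.5 FPKM or more in 3 or more samples), as did 16321 genes in total. RELB, NFKB2, TNFAIP3 and NFKB1 were higher in the OV-BRCA1 group at an adjusted p below 0.05, and none of the 10 was lower at that threshold. Among all genes tested, 16.4% passed it as higher and 18.9% as lower, so 35.3% passed in either direction. RELB alone was a differentially expressed gene (DEG), which also required an absolute log2 fold change above 1. Of all genes tested, 3.99% were DEGs (2.89% higher, 1.1% lower). BRCA1, at a log2 fold change of 0.95, passed the adjusted p but not the fold change criterion. The 3 OV-BRCA1 values lay above all 3 NC values in 7 of the 10 and below them in 1, RELA, and the groups overlapped for NFKBIA and BCL3. Over all genes tested, the groups were separate for 50.8%, and 23.4% were separate with OV-BRCA1 higher and 27.4% with OV-BRCA1 lower. The 10 genes had a median change of 0.29 on the log2 scale, against -0.04 over all genes.

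**Figure D2:**
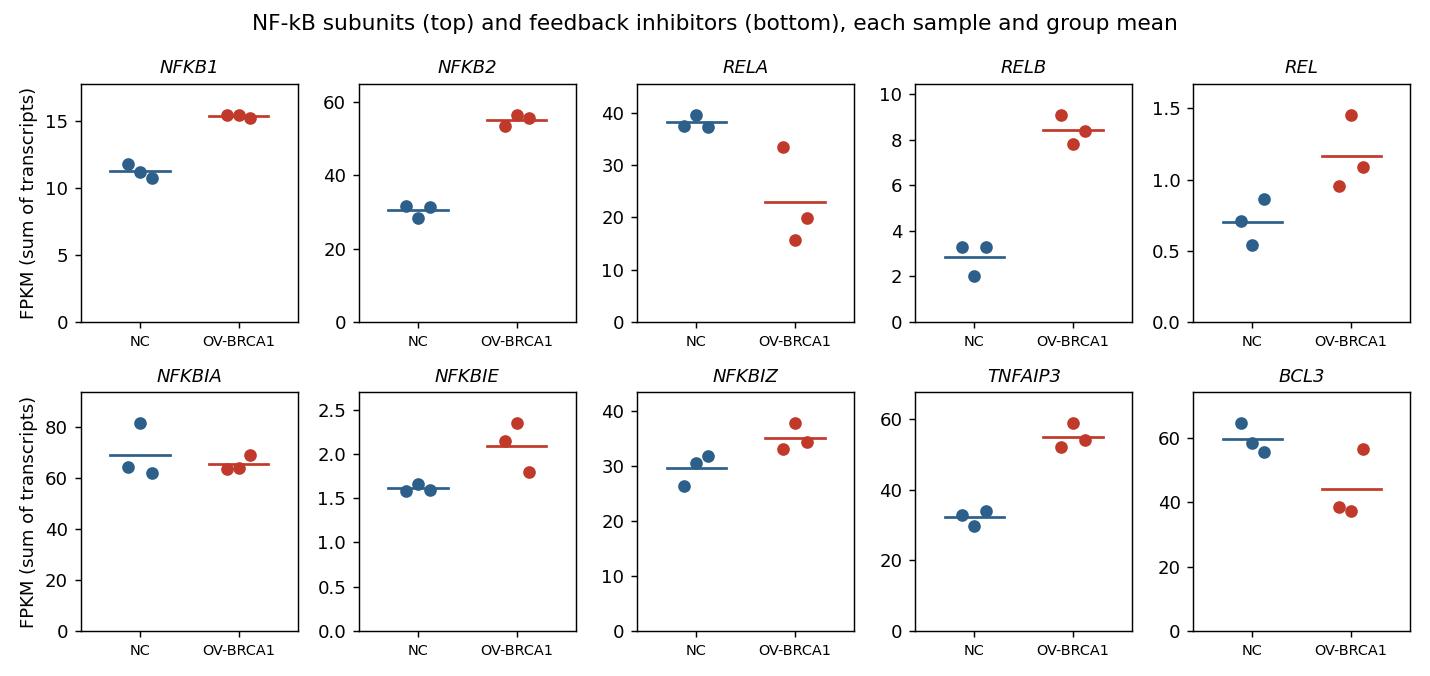
FPKM of each gene (vertical axes, each starting at 0) in the 3 NC samples (blue) and 3 OV-BRCA1 samples (red), with horizontal lines at the group means. The groups are apart for every gene except NFKBIA and BCL3, and the OV-BRCA1 samples lie apart from one another for RELA, between 15.8 and 33.5, and for BCL3, between 37.4 and 56.6.

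RELB encodes the partner of p52 in the noncanonical route. RELB was measured at 9.09, 7.81 and 8.39 FPKM in OV-BRCA1 samples 1 to 3 and at 3.29, 2.02 and 3.30 in NC samples 1 to 3. The lowest OV-BRCA1 sample was thus above the highest NC sample. The means were 8.43 ± 0.640 and 2.87 ± 0.734 FPKM, 2.94 times higher in the OV-BRCA1 group, and the log2 fold change was 1.30 (SE 0.16, adjusted p = 0.00153). Among the 7 RELB transcripts, 3 coding ones reached a mean of 1 FPKM, and RELB-202, the most abundant over the 6 samples, differed by 0.88 with an adjusted p of 0.300. RELB-202 ranged from 0 to 2.91 FPKM within the NC group, so the call rests on the sum over transcripts.

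NFKB2 encodes p100, the precursor of p52 that also retains dimers in the cytoplasm. NFKB2 was measured at 53.3, 56.4 and 55.6 FPKM in the OV-BRCA1 samples and at 31.7, 28.4 and 31.2 in the NC samples. Both groups were tight and far apart. The means of 55.1 ± 1.63 and 30.4 ± 1.74 FPKM gave a ratio of 1.81, and NFKB2 rose by 0.84 on the log2 scale (SE 0.06, adjusted p = 2.05e-04). The noncanonical kinase gene MAP3K14, chosen after its values were seen, was measured at 6.71 ± 0.655 against 4.02 ± 0.228 FPKM and rose by 0.62 (adjusted p = 0.00346).

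NFKB1 encodes p105, the precursor of p50. NFKB1 was at 15.4, 15.5 and 15.2 FPKM in the OV-BRCA1 samples and 11.8, 11.2 and 10.7 in the NC samples. The separation was complete but the step was smaller than that of NFKB2. NFKB1 rose by 0.42 on the log2 scale (SE 0.06, adjusted p = 0.00316), from 11.2 ± 0.544 to 15.4 ± 0.135 FPKM. The ratio of NFKB2 to NFKB1 FPKM was 3.58 ± 0.117 in the OV-BRCA1 group against 2.71 ± 0.190 in the NC group, with no overlap between groups. Most NFKB1 signal came from the coding transcript NFKB1-202, which rose by 0.42 (adjusted p = 0.00760).

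REL encodes c-Rel, best known from lymphoid cells, and was the least abundant of the 10 genes by FPKM in both groups. Its values were 0.958, 1.46 and 1.09 FPKM against 0.710, 0.539 and 0.864 in the NC samples. The groups did not overlap, but the log2 fold change of 0.34 (SE 0.13) had an adjusted p of 0.0778. The difference was 0.66 at a pseudocount of 0.1 and 0.14 for the most abundant transcript, REL-201 (adjusted p = 0.0827 and 0.725). As a share of all mapped fragments, for which each FPKM is multiplied by its transcript's length, the REL groups overlapped (adjusted p = 0.467). The long non-coding gene AC010733.2 overlaps REL on the same strand and was listed between 0.947 and 3.22 FPKM, so the assignment of reads between them is uncertain.

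RELA encodes p65, the main activating subunit of the canonical route, and was the subunit with the lower values in the OV-BRCA1 group. RELA was measured at 33.5, 15.8 and 19.9 FPKM in OV-BRCA1 samples 1 to 3 and at 37.6, 39.6 and 37.4 in NC samples 1 to 3. OV-BRCA1 sample 1 lay close to the NC samples, and samples 2 and 3 were far below. The means were 23.1 ± 9.27 and 38.2 ± 1.25 FPKM, with a log2 fold change of -0.77 (SE 0.25, 95% confidence interval -1.37 to -0.17, adjusted p = 0.0544), which did not pass. Without OV-BRCA1 sample 1 the difference was -1.07 (adjusted p = 0.00264) and met the DEG criterion, whereas it was -0.55 (adjusted p = 0.113) without sample 2 and -0.70 (adjusted p = 0.139) without sample 3.

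The values of RELA differed between samples in which of its 27 transcripts they were assigned to. RELA-217, a retained intron transcript, was at 21.8 FPKM in OV-BRCA1 sample 1 and 22.4, 23.2 and 23.3 in the NC samples, but at 0.000674 and 0 in OV-BRCA1 samples 2 and 3. The coding transcript RELA-226 was at 9.52, 10.1 and 8.43 FPKM in the NC samples and at 0.254, 0 and 0.000709 in the OV-BRCA1 samples. The coding transcript RELA-201 showed the opposite, 6.32, 8.71 and 2.03 FPKM in the OV-BRCA1 samples against 0.327, 0.302 and 0.230. RELA-208, a transcript marked for nonsense-mediated decay, was listed at 11.1 FPKM in OV-BRCA1 sample 3 and at 0 in the other 5 samples. The 13 coding transcripts together came to 7.69, 11.4 and 5.60 FPKM in the OV-BRCA1 samples and 11.4, 11.9 and 10.4 in the NC samples. On these alone the difference was -0.45 (adjusted p = 0.197), and OV-BRCA1 sample 2 lay within the NC range. As a share of all mapped fragments the difference was -0.87 (adjusted p = 0.0589), and the groups did not overlap. How far the assignment of reads to transcripts contributes to the lower RELA sum was not tested.

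**Figure D3:**
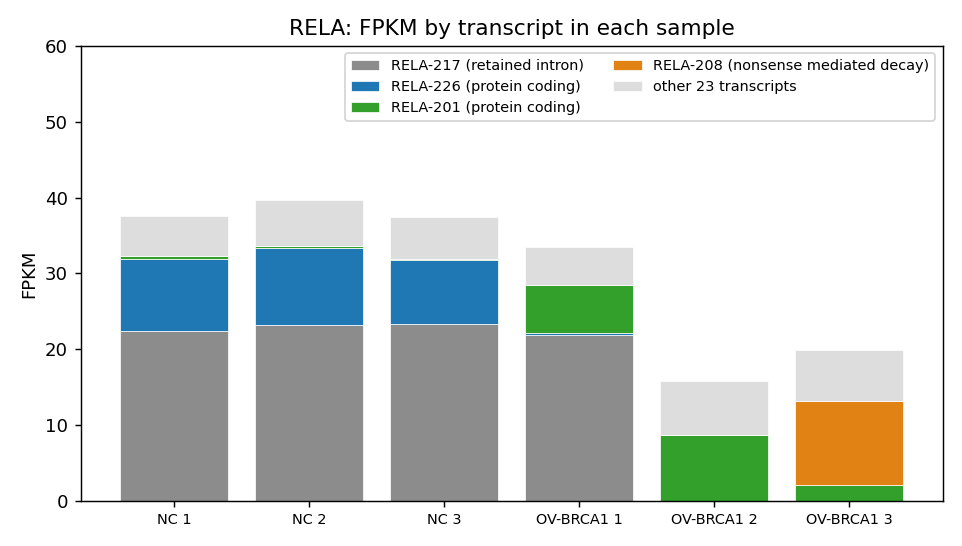
Stacked bars of RELA FPKM (vertical axis, starting at 0) by transcript in each of the 6 samples, with the 4 transcripts described in the text and the other 23 in light grey. The retained intron transcript RELA-217 (dark grey) fills most of 4 bars and is at or near 0 in OV-BRCA1 samples 2 and 3, while RELA-226 (blue) is seen in the NC samples and RELA-201 (green) in the OV-BRCA1 samples.

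The 5 subunits summed to 103 ± 8.08 FPKM in the OV-BRCA1 group against 83.5 ± 1.59 in the NC group. NFKB2 and RELB together made up 55.5, 66.3 and 63.9% of that sum in the OV-BRCA1 samples and 41.1, 37.2 and 41.3% in the NC samples, and the groups did not overlap. RELA made up 22.0 ± 7.02% in the OV-BRCA1 group against 45.8 ± 2.29% in the NC group. These sums and shares all include the RELA values with the transcript differences described above. Over coding transcripts alone, the 5 subunits summed to 82.7 ± 4.38 FPKM in the OV-BRCA1 group against 52.3 ± 1.93 in the NC group, and NFKB2 and RELB made up 70.3 ± 2.39% and 56.3 ± 2.86%, again without overlap.

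Of the inhibitors, TNFAIP3 encodes a ubiquitin-editing enzyme that dampens signalling to the IkB kinase. TNFAIP3 was measured at 52.2, 58.8 and 54.2 FPKM in the OV-BRCA1 samples and 32.8, 29.8 and 34.0 in the NC samples. All OV-BRCA1 samples were well above all NC samples. The means were 55.1 ± 3.40 and 32.2 ± 2.14 FPKM, a ratio of 1.71, and TNFAIP3 rose by 0.76 on the log2 scale (SE 0.07, adjusted p = 6.56e-04). Its most abundant transcript, the coding TNFAIP3-210, was at 37.0, 36.2 and 38.9 FPKM against 19.0, 16.7 and 17.6, and rose by 1.03 (adjusted p = 6.81e-04). An antisense gene, AL357060.1, overlaps TNFAIP3 and was listed at 13.0 to 16.7 FPKM over the 6 samples, and without strand information its reads cannot be told apart from those of TNFAIP3.

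NFKBIA was the most abundant of the 10 genes in both groups by FPKM summed over all transcripts. Its values were 63.5, 63.8 and 68.9 FPKM in the OV-BRCA1 samples and 64.3, 81.3 and 61.8 in the NC samples. The groups overlapped. The log2 fold change was -0.07 (SE 0.11, adjusted p = 0.660), with a 95% confidence interval of -0.33 to 0.19, so a difference within those bounds was not excluded. The 4 coding NFKBIA transcripts together were at 50.6, 51.4 and 56.3 FPKM against 53.2, 53.3 and 51.5, and the high value of NC sample 2 lay in its non-coding transcripts, at 28.0 FPKM where the other 5 samples held 10.3 to 13.0. The ratio of TNFAIP3 to NFKBIA was 0.843 ± 0.0702 in the OV-BRCA1 group against 0.476 ± 0.0965 in the NC group, without overlap.

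NFKBIE encodes IkBε, another cytoplasmic inhibitor, and was at 2.15, 2.34 and 1.79 FPKM in the OV-BRCA1 samples and 1.58, 1.66 and 1.60 in the NC samples. The groups were apart by a small margin. The difference of 0.24 (SE 0.10) had an adjusted p of 0.0985. Other ways of summing, added after the data had been seen, changed this. Over coding transcripts alone the difference was 0.39 (adjusted p = 0.0405), and as a share of all mapped fragments it was 0.54 (adjusted p = 0.0129).

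NFKBIZ and BCL3 encode nuclear IkB proteins, which can raise as well as lower the transcription of NF-kB targets. NFKBIZ was at 33.1, 37.7 and 34.3 FPKM in the OV-BRCA1 samples and 26.3, 30.6 and 31.8 in the NC samples. The groups lay next to each other without overlap, and the difference of 0.24 (SE 0.09) had an adjusted p of 0.0801. Over coding transcripts alone and as a share of all mapped fragments the NFKBIZ groups overlapped (adjusted p = 0.517 and 0.492). BCL3 was at 38.6, 37.4 and 56.6 FPKM in the OV-BRCA1 samples and 64.6, 58.6 and 55.7 in the NC samples. OV-BRCA1 sample 3 lay within the NC range and samples 1 and 2 below it. The BCL3 difference was -0.45 (SE 0.16, adjusted p = 0.0775).

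The BCL3 value of OV-BRCA1 sample 3 included 15.6 FPKM of BCL3-209, a short processed transcript listed at 0 in OV-BRCA1 samples 1 and 2 and at 19.8, 7.94 and 7.28 in the NC samples. The 2 coding BCL3 transcripts summed to 34.8, 35.5 and 35.8 FPKM in the OV-BRCA1 samples and to 41.9, 40.7 and 44.8 in the NC samples, and on this sum the groups did not overlap. The coding sum differed by -0.26 (adjusted p = 0.0142), the share of all fragments by -0.40 (adjusted p = 9.13e-04), and the gene sum without OV-BRCA1 sample 3 by -0.63 (adjusted p = 0.00515). BCL3 was therefore lower past the threshold under these 3 alternatives and not in the FPKM sum over all transcripts and all 6 samples. The miRNA gene MIR8085 overlaps BCL3 on the same strand and was listed at 0.122, 3.29 and 2.50 FPKM against 6.76, 5.20 and 5.59, so the assignment of reads between them is uncertain.

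**Figure D4:**
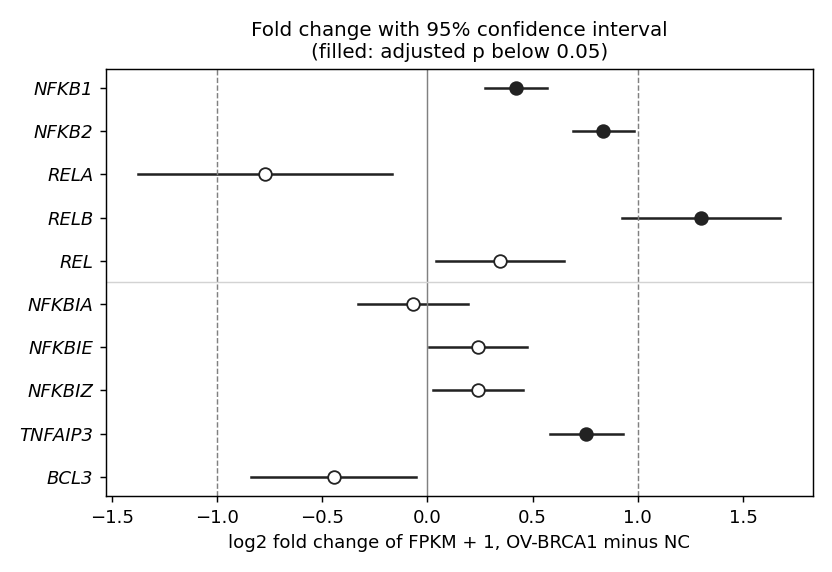
Log2 fold change of FPKM + 1 (OV-BRCA1 minus NC, horizontal axis) with its 95% confidence interval for the 5 subunits (top) and 5 inhibitors (bottom), filled where the adjusted p was below 0.05 and with dashed lines at a change of 1 in each direction. RELB is the filled point past the dashed line at 1.30, and RELA and BCL3 are open points below 0 with wide intervals.

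In order of level, the NC group had NFKBIA and BCL3 at the top, which overlapped, followed by RELA. TNFAIP3, NFKB2 and NFKBIZ came next, and each overlapped its neighbour. NFKB1, RELB, NFKBIE and REL followed without overlap. In the OV-BRCA1 group NFKBIA was again first and NFKB1, RELB, NFKBIE and REL again last, all without overlap with their neighbours. Between them stood NFKB2, TNFAIP3, BCL3, NFKBIZ and RELA, and each overlapped the next. RELA came after BCL3 in the NC group and after NFKBIZ in the OV-BRCA1 group, levels that include the retained intron transcript RELA-217. Over coding transcripts alone RELA stood at 11.2 ± 0.735 FPKM in the NC group, beside NFKBIZ (11.2 ± 4.34) and NFKB1 (10.9 ± 0.235), and at 8.23 ± 2.93 in the OV-BRCA1 group.

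Profiles over the 6 samples were compared by the root mean square difference of log2(FPKM + 1) centred on each gene's own mean. The genes most like RELB were FKBP11 (0.0751), FST (0.111) and PARP12 (0.117). NFKB2 was closest to FNDC3A (0.0325), KITLG (0.0345) and ZNF121 (0.0367). The nearest to RELA were SCARNA22 (0.0962), the antisense gene AL365330.1 (0.107) and the pseudogene BX284668.4 (0.116), all non-coding and none above 14 FPKM in any sample.

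Other genes of the pathway were taken from 3 lists, which were chosen with earlier results of these data known. Of 26 genes of the activating machinery (receptor adaptors, ubiquitin ligases and kinases), all tested, 5 were higher and 3 lower at an adjusted p below 0.05, against 16.4% and 18.9% of all genes tested, and the median log2 fold change was 0.25. BIRC3, a ubiquitin ligase of the TNF receptor complex that also keeps NIK low, was at 13.1, 15.0 and 16.5 FPKM in the OV-BRCA1 samples against 1.21, 1.81 and 1.67 (log2 fold change 2.63, adjusted p = 4.61e-05). IRAK2, a kinase of interleukin-1 and Toll-like receptor signalling, was at 7.77, 7.73 and 7.85 against 2.39, 3.44 and 2.85 FPKM (1.18, adjusted p = 6.13e-04). These were the 2 DEGs of the list, where 3.99% of all genes tested were DEGs (2.89% higher). RBCK1 and SHARPIN, partners in the complex that builds linear ubiquitin chains, moved in opposite directions, RBCK1 by 0.59 (adjusted p = 0.00177) and SHARPIN by -0.44 (adjusted p = 0.00286). The adaptors TRADD and TRAF1 were each lower, with changes of -0.49 (adjusted p = 0.00331 and 0.0120). MYD88 and BIRC2 had larger differences, 1.60 and 1.00, that did not pass (adjusted p = 0.0810 and 0.0565). MYD88 ranged from 14.0 to 52.1 FPKM within the OV-BRCA1 group, and the groups of both genes overlapped. Both were chosen after their values were seen, and both were DEGs when NC sample 3 was left out, which gave 4 DEGs in this list. BIRC2 was also a DEG without OV-BRCA1 sample 1 and with the replicate number as a block, and MYD88 without OV-BRCA1 sample 3, which gave 3 DEGs each.

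Of 17 other inhibitor genes, 16 were tested, 6 were higher at an adjusted p below 0.05 and none was lower, against 16.4% and 18.9% of all genes tested. None met the DEG criterion by limma, and 8 had an unadjusted p below 0.05, as did 7507 of all 16321 genes. The median log2 fold change was 0.18. TNIP1, which binds the TNFAIP3 product, was at 33.2, 33.9 and 42.1 FPKM in the OV-BRCA1 samples and 20.3, 18.0 and 18.9 in the NC samples, a change of 0.89 (adjusted p = 0.00142). CYLD, a deubiquitinase, rose by 0.56 (adjusted p = 0.00403) and ZC3H12A, an RNase for cytokine transcripts, by 0.39 (adjusted p = 0.00155).

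Of 26 target genes outside the family, 17 passed the filter, and the 9 others stayed at low values in most samples, among them TNF, named after its values were seen, at no more than 0.195 FPKM. Targets among the members and in the machinery or other inhibitor lists were left out, so the counts here do not cover them. The list of targets was chosen with earlier results of these data known. Of the 17, 16 were higher at an adjusted p below 0.05, 11 were DEGs and the median log2 fold change was 1.74. Over all genes tested, 16.4% were higher at that threshold and 2.89% were DEGs with OV-BRCA1 higher. CXCL10 and IL1A were below 0.5 FPKM in all NC samples and passed the filter through the OV-BRCA1 samples alone, so they could only come out as higher. At 1 FPKM or more in all 6 samples, which CXCL10, CCL20, IL1A and IL1B did not reach, 9 targets were DEGs, and 311 of all 12607 genes that passed were DEGs with OV-BRCA1 higher. IL1A, IL1B and CCL20 were named after their values were seen. CXCL8, a neutrophil chemokine, was at 125, 121 and 131 FPKM in the OV-BRCA1 samples against 5.39, 5.82 and 6.29 in the NC samples. CXCL1, of the same kind, was at 86.1, 84.9 and 84.8 against 11.4, 10.4 and 10.3 FPKM. CXCL10, a chemokine for T cells that interferon also induces, was at 20.5, 21.2 and 24.5 against 0.364, 0.218 and 0.359 FPKM. CD40, the tested target that did not pass and named after its values were seen, differed by -0.0019 (adjusted p = 0.990).

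**Figure D5:**
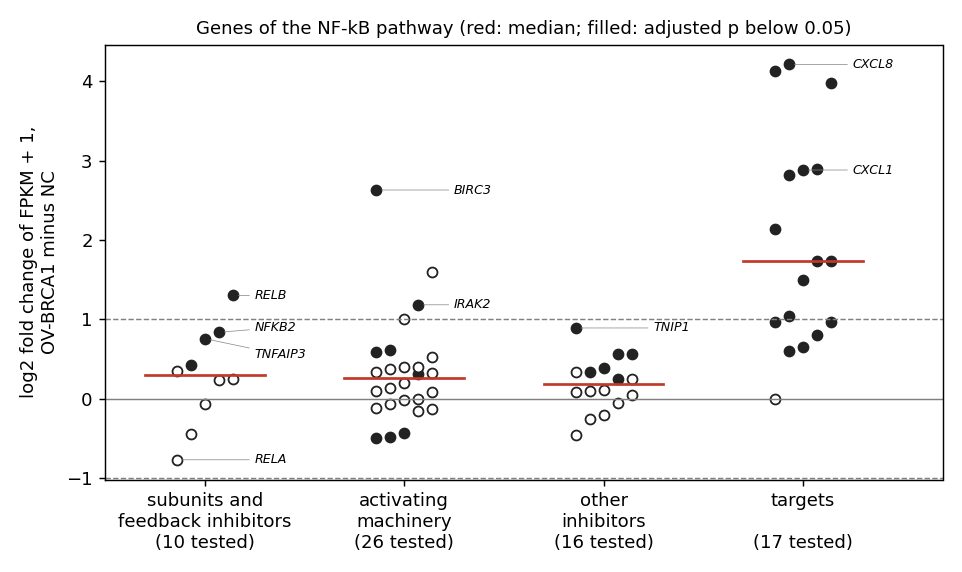
Log2 fold change of FPKM + 1 (vertical axis) of each tested gene in the 10 NF-kB subunits and feedback inhibitors, 26 machinery genes, 16 other inhibitors and 17 targets, filled where the adjusted p was below 0.05, with red lines at the medians of 0.29, 0.25, 0.18 and 1.74. Targets reach above 4, whereas the subunits and feedback inhibitors stay between -0.77 and 1.30.

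Of 9 epithelial markers, KRT8, KRT17 and KRT18 were each at 188 FPKM or more, and 5 reached 1 FPKM. KRT5 and TP63 stayed below 0.5 FPKM, and KRT19 and CDH1 below 1 FPKM, in all samples. The 9 markers summed to 1594 to 1742 FPKM in the OV-BRCA1 group against 1933 to 1977 in the NC group. KRT17, the most abundant, changed by -0.48 on the log2 scale (adjusted p = 0.00263), whereas KRT8 (0.20), KRT18 (0.39) and EPCAM (1.12) were higher (adjusted p between 9.76e-04 and 0.0282). KRT6A was at 1.10, 0.979 and 1.19 FPKM in the OV-BRCA1 samples and at 0.250 or less in the NC samples, and passed the filter through the OV-BRCA1 samples alone. Of 7 leukocyte markers 2 reached 1 FPKM, CD14 and CD68, and the list summed to 31.3 to 37.2 FPKM in the OV-BRCA1 group against 22.2 to 24.0 in the NC group. PTPRC and MS4A1 were listed at 0 in all samples. The 5 fibroblast markers summed to 3.17 to 3.70 FPKM in the OV-BRCA1 group against 6.15 to 6.73 in the NC group, nearly all of it COL1A1 (-0.79, adjusted p = 0.00106), and the 4 endothelial markers to 0.761 to 1.45 against 0.629 to 0.788. CD68 was higher by 2.63 and CD14 lower by 1.22 on the log2 scale. The part of these markers in the results was not tested. Mitochondrial genes held 14.8 to 17.2% of the summed FPKM in the OV-BRCA1 group against 21.0 to 23.2% in the NC group. With values scaled to nuclear protein-coding genes instead, RELA was the fifth of the 10 genes to pass (-0.81, adjusted p = 0.0410), and NFKB1, NFKB2, RELB and TNFAIP3 stayed past the threshold. In bulk samples, fewer cells that express a gene and less of its RNA per cell cannot be told apart.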

How the data were processed

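mRNA libraries of SiHa cells (OV-BRCA1 and NC, n = 3 each) were grouped by their labels. The deposited values are FPKM per transcript, which the authors made after removing adapter, ambiguous and low-quality reads. The submitters' processing notes name FastQC, HISAT2 and hg38, and the quantification tool and the use of strand are not given in the sources used here.

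FPKM of 199167 transcripts was summed per gene by GENCODE 29 names. Low FPKM values did not come out as whole fragments, with 32.9 to 43.5% within 0.1 of a whole number. The scale of each library was the one that fitted whole numbers best, so the 20% of an even spread is not a strict reference. The number of fragments behind each value is unknown, so no count test was run and no counting interval is given. The study states total reads per library, which do not give fragments per gene. Genes at 0.5 FPKM or more in at least 3 samples were tested with limma 3.58.1 in R 4.3.3 (trend, not robust, all 6 samples, log2(FPKM + 1)). Fold changes on this scale understate those of low genes. P-values were two-sided and Benjamini-Hochberg adjusted over all 16321 genes, and a DEG needed an adjusted p below 0.05 together with a log2 fold change past 1 in either direction. An exact permutation test of 3 against 3 samples cannot go below 0.1. The ratios and the subunit sums and shares were not among the planned results, and each gave 0.1 in that test. The study describes the samples as replicates, and p-values measure the spread between these samples. The fit was tested on simulated data. RefSeq start windows were searched with Python 3.11.15.

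The members and lists were chosen with earlier results of these data known. Besides the members and BRCA1, up to 3 genes per list and direction with the smallest adjusted p were named, the 3 nearest profiles of the 3 members with the largest change, and each member's most abundant transcript. Alternatives were the pseudocount, the filter, the scaling, a replicate block, leaving out each sample, the most abundant transcript and robust estimation. Values multiplied by transcript length and coding transcripts only were added after the data had been seen. REL-203, an annotated transcript, was not analysed here.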

Additional observations from a re-analysis of the deposited data

How the results depend on the processing

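Under 16 alternatives, NFKB1, NFKB2 and TNFAIP3 kept their direction and stayed past an adjusted p of 0.05, with log2 fold changes of 0.38 to 0.45, 0.79 to 1.11 and 0.70 to 1.03. RELB ranged from 0.88 to 1.55 and missed the threshold only for its most abundant transcript. RELA ranged from -3.08 for its most abundant transcript (adjusted p = 0.167) to -0.45. REL ranged from 0.14 to 0.66, NFKBIE from 0.18 to 0.66, NFKBIZ from 0.16 to 0.36 and BCL3 from -0.63 to -0.26. NFKBIA turned to a positive value in 3 cases, 0.052 without NC replicate 2, 0.00051 for its most abundant transcript and 0.0012 for coding transcripts only, and without single samples it ranged from -0.14 to 0.052. REL could not be fitted at 1 FPKM or more in all samples because it did not pass that filter.

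The members held 2 DEGs, NFKB2 and TNFAIP3, by most abundant transcript, and 1 to 2 without single samples (2, RELA and RELB, without OV-BRCA1 replicate 1). From 3 to 6 members passed the adjusted p over the alternatives. The machinery list held 2 to 4 without single samples. Over all genes, 651 DEGs (472 higher, 179 lower) became 1280 (764 higher, 516 lower) at a pseudocount of 0.1, and 646 to 701 without single samples.

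Same-numbered samples of the groups deviated together with correlations of -0.0244, 0.025 and 0.0136, so the numbers are taken as names only. A replicate block gave 646 DEGs over all genes and left 4 members past the adjusted p and 1 member as a DEG, and not every sample correlated best with its own number. The number of fragments behind each value is unknown, so counting error could not be set apart, also for REL and NFKBIE, the members with the lowest FPKM.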

Other observations

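NFKB2, RELB, REL, NFKBIZ and NFKBIE also differed between samples in the transcript that had the highest FPKM. RELB-201 was at 2.89, 2.22 and 3.23 FPKM in the OV-BRCA1 samples against 0.834, 1.00 and 0.267, while RELB-207 was at 1.90, 1.44 and 2.24 against 2.15, 0 and 0. REL-202 was at 0.691, 0.322 and 0.557 FPKM against 0, 0.353 and 0.339. NFKB2-204 was at 23.4 FPKM in OV-BRCA1 sample 1 and 11.9 in NC sample 2 and at 1.34 or less in the other 4 samples, while the coding NFKB2 transcripts together were at 48.4, 52.7 and 50.8 against 27.6, 24.8 and 28.1 FPKM. NFKBIZ-203, a coding transcript that begins at the first of 2 NFKBIZ starts, was at 19.6 FPKM in OV-BRCA1 sample 2 and below 0.04 in the other 5 samples. The coding share of NFKBIZ was 63.3% in that sample and 51.0% in NC sample 3, and 28.9 to 32.5% in the other 4. NFKBIE-204 and NFKBIE-201 took turns, with NFKBIE-204 at 1.97, 2.13 and 0 FPKM and NFKBIE-201 at 0.177, 0.210 and 1.79 in OV-BRCA1 samples 1 to 3. TNFAIP3-201 went against the sum of its gene, at 0.370, 1.94 and 0.384 FPKM in the OV-BRCA1 samples and 4.81, 4.32 and 4.50 in the NC samples. NFKBIE-204, the most abundant NFKBIE transcript, differed by 0.66 (SE 0.57, limma adjusted p = 0.474). The other transcripts named here were chosen after their values were seen and were not tested.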
